A study of Drosophila melanogaster with 3 samples.

Results

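The elav family of Drosophila melanogaster consists of the paralogues elav, fne and Rbp9, and these 3 genes, taken by name out of 13945 protein-coding genes, were examined for binding of tagged Scute. ChIP-seq had been done on whole embryos of both sexes aged 0 to 14 h from the transgenic strain sc-GFP, which carries Scute fused to GFP at its C-terminus, with an anti-GFP antibody. The 3 biological replicates form 1 group, so there was no contrast between conditions and no test between groups. All libraries came from that 1 strain, and the promoter of the transgene is not given in the sources used here. An untagged or input library was not analysed here, and with whole embryos the cells that contributed the signal cannot be told apart.

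Scute is a proneural bHLH transcription factor that, paired with Daughterless, binds E-boxes and starts neural precursor fate. The elav family acts later, in the neurons themselves. ELAV, the standard marker of postmitotic neurons, is an RNA-binding protein with RNA recognition motifs that controls splicing and the choice of polyadenylation site. FNE is its close neuronal relative and can share its work on RNA processing, and both favour long neuronal 3' UTRs. RBP9 is found in neurons and also acts in differentiation of the female germline.

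The authors called regions on each replicate and on the replicates together (the pooled list), 30000 regions in each list. Through the irreproducible discovery rate procedure they kept a thresholded set of 3612 regions. Each region has a summit, a signal on the scale of its own list, and a q-value, which was under 5% for 4853, 6346 and 6435 regions of replicates 1, 2 and 3. Rank 1 is the highest signal of a list. The lowest pooled signal of the thresholded set, 146, was also that of rank 3612 in the pooled list. Being in the set did not mean a matched summit within 250 bp in every replicate, since 3476 regions had one in all 3. Read depth is unknown, and intervals below cover counting error only. A summit was assigned to a gene if it lay in the gene body or up to 2000 bp upstream.

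All 3 genes held a thresholded summit, against 20.5% of all protein-coding genes. Long genes hold summits more often. The share was 38.0% among genes with territories of 11.1 to 16.6 kb, the class of elav and Rbp9, and 52.9% among genes of 30.6 kb or more, the class of fne. The thresholded summits of all 3 are also in the pooled list with a q-value under 5%, so a count of pooled summits adds no further evidence. A pooled summit with a q-value under 5% was held by 29.6% of all genes. The share was 51.1% in the length class of elav and Rbp9 and 66.0% in that of fne. There were 4 thresholded regions in all. The elav gene had 1 in its promoter, fne had 2 in a long intron, and Rbp9 had 1 in an intron between 2 of its starts. Holding 2 or more was seen for 5.41% of all genes, and for 35.2% of genes in the length class of fne. The windows of 201 bp around these 4 summits are printed because they are the sequences at the thresholded summits of the family. They are read 5' to 3' on the strand of the gene from the Release 6 genome (dm6), at chrX:523374-523574 on the minus strand for elav, chrX:12923561-12923761 and chrX:12925835-12926035 on the plus strand for fne, and chr2L:2957575-2957775 on the plus strand for Rbp9. Capitals mark E-boxes, CANNTG on either strand, and none of the windows overlaps an annotated exon. At fne some replicate summits lay outside the printed windows, those of replicates 1 and 2 in the first region and of replicate 1 in the second. Motif and GC values given below for fne therefore describe the thresholded summits, not the summit of every replicate.
elav promoter: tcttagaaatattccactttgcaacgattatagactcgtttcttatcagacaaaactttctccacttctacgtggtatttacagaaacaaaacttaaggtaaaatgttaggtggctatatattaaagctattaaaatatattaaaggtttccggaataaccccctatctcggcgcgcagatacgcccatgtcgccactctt
fne intron first: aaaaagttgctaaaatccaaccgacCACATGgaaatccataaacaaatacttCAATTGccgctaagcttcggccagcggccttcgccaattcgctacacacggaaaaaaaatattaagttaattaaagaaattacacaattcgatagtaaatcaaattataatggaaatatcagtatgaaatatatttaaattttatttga
fne intron second: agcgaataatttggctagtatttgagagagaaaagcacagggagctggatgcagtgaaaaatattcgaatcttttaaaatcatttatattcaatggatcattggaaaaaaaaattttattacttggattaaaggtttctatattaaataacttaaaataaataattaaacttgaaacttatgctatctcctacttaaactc
Rbp9 intron: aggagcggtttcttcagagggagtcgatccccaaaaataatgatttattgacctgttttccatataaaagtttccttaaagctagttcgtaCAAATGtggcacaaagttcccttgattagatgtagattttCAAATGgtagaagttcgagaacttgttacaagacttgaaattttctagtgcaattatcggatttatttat

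**Figure D1:**
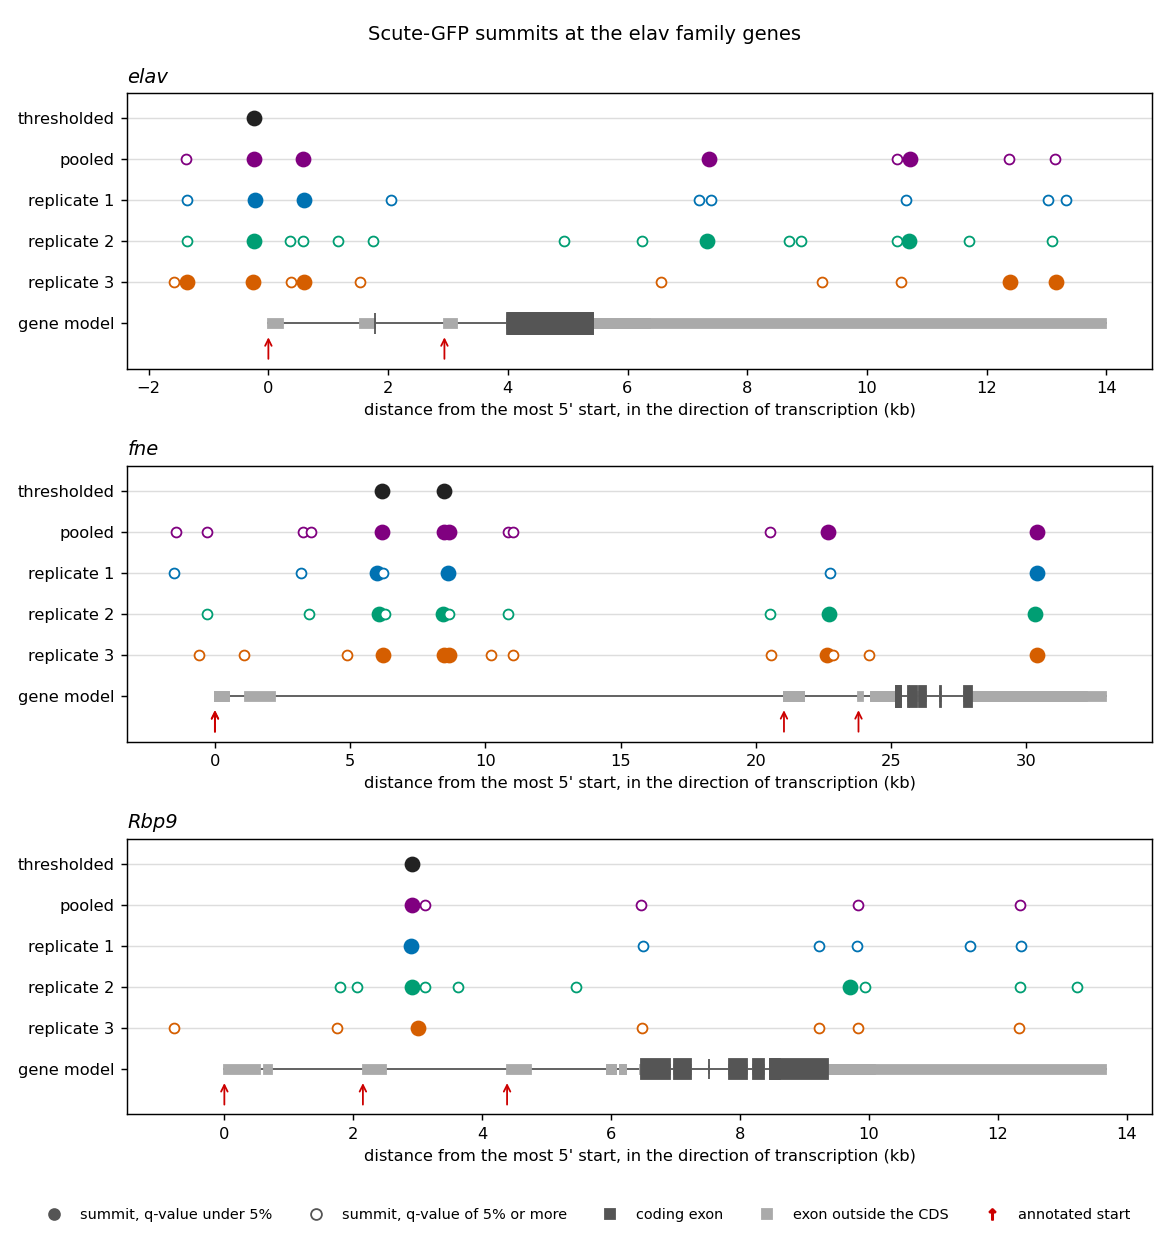
Summits of the thresholded, pooled and 3 replicate lists along elav, fne and Rbp9, placed by distance in kb from the most 5' annotated start in the direction of transcription. Filled circles have a q-value under 5%, open circles do not. The elav promoter, the large fne intron and the Rbp9 intron carry filled circles in all 5 lists.

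The elav gene (FBgn0260400) lies on X at 509235 to 523226 on the minus strand and has 4 transcripts from 2 starts. Its thresholded region, chrX:523319-523649, had the summit at 523474, which is 248 bp upstream of the first start, used by 3 transcripts, and 3189 bp upstream of the second. A thresholded summit within 500 bp of a start was found for 12.4% of protein-coding genes. The region ranked 123 in replicate 1, 97 in replicate 2 and 163 in replicate 3. Its signal was 248, 351 and 246, or 11.5, 12.4 and 11.7 times the median region of the same list, a mean of 11.9 ± 0.456 (SD, n = 3). All replicates thus placed it near the top of their lists. In the pooled list its signal was 838 (rank 119), 3.62 times the median of the thresholded set, and 3.27% of thresholded regions were higher. Of the 2858 genes with a thresholded region, 154 (5.39%) had a region of better mean rank than that of elav.

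The elav region was narrower than the median of 430 bp in the thresholded set, as were 31.4% of thresholded regions. The thresholded regions of fne and Rbp9 were all 430 bp wide, as was every other pooled region in the member territories. A width shared by so many regions need not measure the extent of the signal. The elav region was 331 bp wide in the pooled list, and 27.9% of thresholded regions were no wider. Among the 200 highest regions the median width was 338 bp. The replicate summits lay within 34 bp of each other. Over the 3476 thresholded regions matched in all 3 replicates the median of this range was 50 bp. Within 50 kb on either side there were 2 other thresholded regions, the nearest 23.6 kb away, and the higher of them had a pooled signal of 388. The elav gene overlaps arg, the arginase gene, which runs on the opposite strand and starts within the elav 3' UTR, so the summit is also in the arg territory. The nearest start of a protein-coding gene was nevertheless that of elav.

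Signal continued into the body of elav at much lower rank. A pooled summit with a q-value under 5% lay 579 bp inside the gene, in an intron, where the ranks were 4581, 9396 and 3804 in replicates 1, 2 and 3. It was under 5% in 2 replicates. Upstream, at 1374 bp from the start, a pooled summit of rank 6745 did not reach that q-value, although replicate 3 had a region there that did, at rank 4797. The elav territory held 8 pooled summits, 0.5 per kb against 0.224 per kb over the chromosome arms. These densities count summits of any q-value. Of the 8, 4 were under 5%, and over the arms 6504 of 30000 were. The replicates held 9, 15 and 11 summits in the elav territory, of which 2, 3 and 5 were under 5%.

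The fne gene (FBgn0086675) lies on X at 12917477 to 12950417 on the plus strand, with 11 transcripts from 4 starts. The first pair of starts lies 7 bp apart. Further downstream, after an exon at 1100 to 2232 bp from the first start, is an intron of 19.3 or 22.0 kb, depending on the transcript. Both thresholded summits lay in that intron. The first, at 12923661 in chrX:12923446-12923875, was 6184 bp downstream of the first start and 14856 bp upstream of the start at 12938517. The second, at 12925935 in chrX:12925720-12926149, was 8458 bp downstream of the first start and 12582 bp upstream of the same later start. The start at 12941272 was 17611 bp and 15337 bp away from them. The summits were 2274 bp apart, and no other thresholded region was found within 50 kb of either.

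The first fne region ranked 2816, 3294 and 2176 in replicates 1, 2 and 3. Its signal of 52.4, 66.0 and 68.0 was 2.66 ± 0.491 (SD, n = 3) times the median of the list. The second ranked 2165, 2109 and 3149, with a signal of 62.6, 86.2 and 53.7, or 2.83 ± 0.254 (SD, n = 3) times the median. The ranks of these regions overlapped, and which was higher changed between replicates, since replicate 3 placed the first above the second. In the pooled list their signals were 156 and 204. The first was near the edge of the thresholded set, whose lowest signal was 146, and 91.7% of thresholded regions were higher.

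The position of the fne summits was not fixed to within a few bases. The replicate summits of the first region spread over 233 bp, a range reached by 1.18% of the 3476 regions matched in all 3 replicates, and those of the second over 183 bp, reached by 4.06%. Relative to the thresholded summit, replicate 1 lay 196 bp upstream and replicate 2 lay 106 bp upstream in the first region, and replicate 3 lay 37 bp downstream. In the second, replicate 1 lay 171 bp downstream, and replicates 2 and 3 lay 12 and 3 bp upstream. The pooled list held a further region of q-value under 5% at 12926139, next to the second, where replicates 2 and 3 also had separate summits. Replicate 1 had a single summit, at 12926106, for the pair. Close to the first summit, replicates 1 and 2 also had weaker second summits, at 12923691 with rank 8936 and at 12923761 with rank 19226. Matching within 100 bp in place of 250 bp takes these, and the mean rank of the first region goes from 2762 to 10113. Replicate 1 then has no region at the second summit and is given the last rank, and the mean rank there goes from 2474 to 11753.

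**Figure D2:**
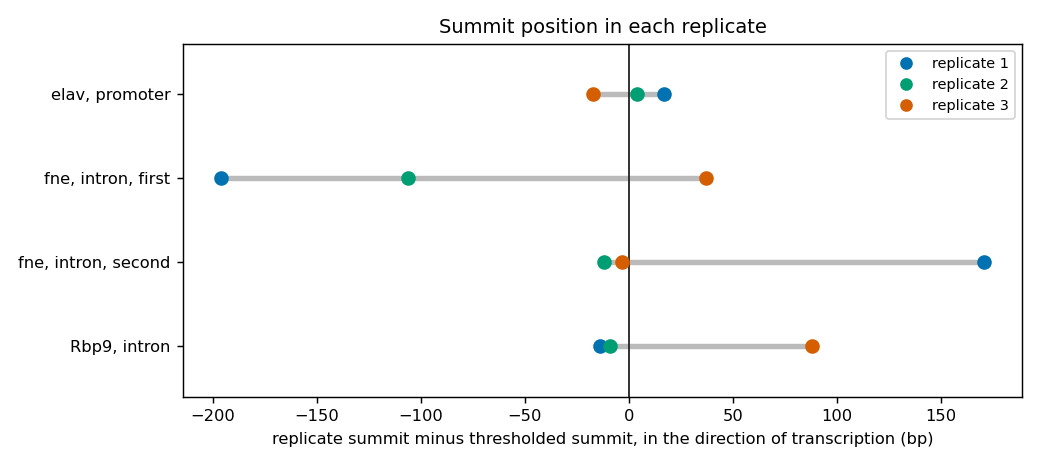
Position of the matched summit in replicates 1, 2 and 3 relative to the thresholded summit, in bp along the direction of transcription, with a grey bar over the range. The elav summits lie within 34 bp of each other, the Rbp9 summits within 102 bp, and the fne summits within 233 and 183 bp.

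Around the starts of fne the signal was weak. The pooled summit nearest to the first start, 303 bp upstream, ranked 19557 and had no q-value under 5%. The one 511 bp upstream of the start at 12938517 ranked 7837, also not under 5%. A pooled summit under 5% lay in an intron 1123 bp upstream of the last start, with ranks of 5303, 6048 and 4438. Thus the highest regions of fne lay inside the gene and that of elav lay at its promoter.

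Rbp9 (FBgn0010263) lies on 2L at 2954762 to 2968434 on the plus strand, with 9 transcripts from 3 starts. The summit of chr2L:2957460-2957889 was at 2957675. It lay 2913 bp downstream of the first start, 764 bp downstream of the second and 1472 bp upstream of the third, in introns of the transcripts from the first and second. The region ranked 2090, 2533 and 1802 in replicates 1, 2 and 3. Its signal was 64.2, 77.4 and 76.0, or 3.11 ± 0.453 (SD, n = 3) times the median of the list. In the pooled list it had a signal of 222 (rank 1924), close to the median of the thresholded set, 232. The replicate summits spread over 102 bp, a range reached by 18.1% of regions matched in all 3 replicates, with replicates 1 and 2 within 5 bp of each other and replicate 3 further downstream. Of the 2 other thresholded regions within 50 kb, the nearest lay 15.1 kb away with gammaTub23C, a gamma-tubulin gene, as its nearest start, and its pooled rank was 302.

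Elsewhere in Rbp9 no pooled summit had a q-value under 5%. The next highest lay in the 3' UTR with rank 7114, and replicate 2 alone had a region under 5% there, at rank 4511. In the pooled list Rbp9 held 5 summits of any q-value, 0.319 per kb, and 1 was under 5%. In the replicates it held 6, 10 and 7, of which 1, 2 and 1 were under 5%.

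Among the family, elav had the strongest region. The replicate ranks of elav, 97 to 163, did not overlap those of any other member region. The ranks of Rbp9, 1802 to 2533, overlapped those of the fne regions, 2176 to 3294 and 2109 to 3149, so no order among these was seen. All 4 thresholded regions had a summit of the highest 3612 regions of every replicate within 250 bp, which held for 66.7% of thresholded regions. The authors derived the thresholded set from these replicate lists, so this is no independent evidence. The highest rank was 1.68 times the lowest for elav, 1.51 and 1.49 times for the fne regions and 1.41 times for Rbp9, against a median of 1.80 over regions matched in all 3 replicates.

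**Figure D3:**
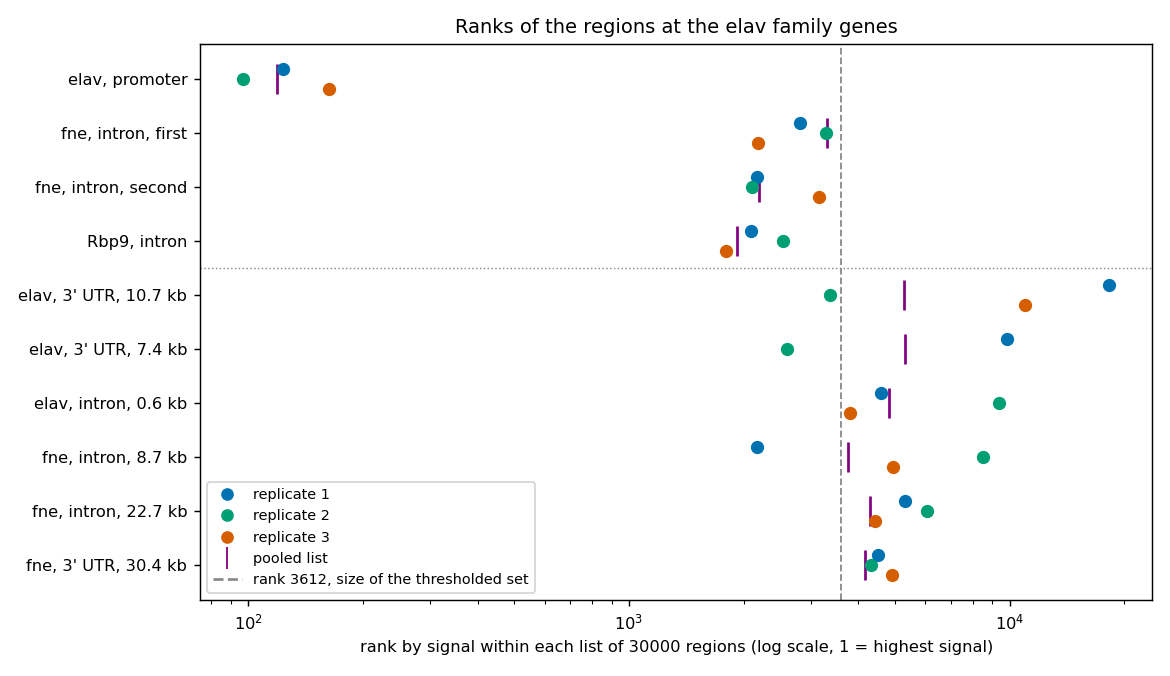
Rank by signal, on a log scale, of the 4 thresholded regions (above the dotted line) and of the 6 other pooled regions with a q-value under 5% (below it, labelled by distance in kb from the first start). Points are replicates, purple bars the pooled list, and the dashed line is rank 3612. The elav promoter region lies between 97 and 163 in the replicates, and the other thresholded regions between 1802 and 3294.

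None of the 4 printed windows held the textbook site of Scute with Daughterless, searched as GCAGCTG and GCAGGTG on both strands. These were found in 3.52% and 1.19% of all 3612 thresholded windows. Any E-box, CANNTG, which contains the core of those sites, was present in 2 of 4 windows and in 60.1% of all windows. The first fne window held CACATG, starting 75 bp before the summit, and CAATTG, starting 48 bp before it. The Rbp9 window held CAAATG at both of its sites, starting 9 bp before and 31 bp after the summit. The elav window and the second fne window held no E-box, nor did they with 150 bp on each side, where 77.2% of thresholded windows had one. CAAATG was present in 19.5% of windows, CAATTG in 8.25% and CACATG in 7.48%. The GATA site, searched as AGATAA on both strands, was in none of the 4 windows and in 15.4% of all.

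GC content was 36.8% at the elav summit, 30.8% and 26.4% at the fne summits, and 34.3% at Rbp9. The mean over thresholded windows was 34.7% ± 6.90 (SD, n = 3612). The second fne window was near the low end, since 8.94% of windows had a lower content.

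The long 3' UTRs of the family were then examined, a question chosen after their values were seen. The annotated 3' UTR sequence spans 8557 bp in elav, 4927 bp in fne and 5048 bp in Rbp9. In elav the transcript elav-RD carries the full length, and in elav-RA it is 556 bp. No thresholded summit lay in these stretches. Pooled summits with a q-value under 5% numbered 2 in that of elav, 1 in that of fne and 0 in that of Rbp9, so 2 of 3 genes had one. The background was 0.581% of protein-coding genes, and 5.43% (7 of 129) of genes with a 3' UTR of at least 4.93 kb. The other 5 of these 7 genes were Hr4, NetB, Octalpha2R, corto and pros.

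The 3' UTR summit of fne was the steadiest of these. It lay 30380 bp from the first start and ranked 4496, 4309 and 4892 in replicates 1, 2 and 3, with a q-value under 5% in each. Those of elav varied more. The one 7369 bp from the first start ranked 9825 and 2602 in replicates 1 and 2, and replicate 3 had no region within 250 bp. The one 10712 bp from the first start ranked 18247, 3376 and 10959. Both were under 5% in replicate 2 only. Replicate 3 had regions under 5% at other places in the elav 3' UTR, 12389 and 13155 bp from the start. Since the elav 3' UTR overlaps arg, whose start lies within it and 3079 bp from the second of these pooled summits, signal there cannot be assigned to elav alone.

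The last question was whether genes related by function were like the family. Of 16 genes for other RNA-binding proteins with roles in neurons or their precursors, 9 held a thresholded summit (56.2%, 95% Wilson interval 33.2 to 76.9). Genes of the same territory lengths did so at 47.8% on average. The list is of long genes, with a median territory of 97.7 kb. The bin of the longest genes spans 30.6 to 1968 kb, so length was matched only roughly there. The musashi gene msi, which acts in asymmetric division of sensory precursors, had the best region, at ranks 55, 65 and 75. Its summit lay 280 bp upstream of a start, much as at elav. The splicing regulator gene Rbfox1 followed at ranks 423, 301 and 340, with a summit in an intron. At cpo, a sensory organ gene, the ranks were 474, 336 and 304, and the summit lay 610 bp upstream of a start. At brat, a translational repressor gene of neuroblast daughters, the ranks were 647, 364 and 196. The other 5 genes with a summit had mean ranks of 660 to 2162, and 7 of the 16 had none.

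Genes whose transcripts the family is known to bind or process held summits at 2 of 6 (33.3%, interval 9.68 to 70.0), where genes in the same length bins gave 37.2%. The count was 1 without replicate 1 or without replicate 2. These were Dscam1, for a neuronal adhesion receptor, with ranks of 1909, 1847 and 2289, and Nrg, for neuroglian, with ranks of 3241, 3165 and 4650. The emc gene, for an inhibitor of proneural bHLH proteins and a target of RBP9, had only a pooled summit under 5%, and arm, bam and ewg had neither. Of the relatives with similar RNA recognition motifs, the sex determination gene Sxl had a region at ranks 2542, 2700 and 1156, 365 bp from a start, and ssx had none.

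Genes that carry out neuronal function held summits at 2 of 14 (14.3%, interval 4.01 to 39.9), and genes in the same length bins at 43.7%. The count was 4 with 5 kb on both sides or with pooled regions of q-value under 5%, and 1 without replicate 1 or without replicate 3. The synaptic adhesion gene Nrx-1 had ranks of 2438, 2764 and 1820, 109 bp from a start. The region in ChAT, for the enzyme that makes acetylcholine, had ranks of 1088, 3702 and 1246 and lay nearest to the start of another gene, 2612 bp away. Appl, the gene for the amyloid precursor-like protein, which lies near elav on X, had none, and neither did the synaptic genes Syt1, brp and nSyb or the channel genes para and cac. Syx1A, for a syntaxin, and scrt, for a zinc finger factor of neurons, had only a pooled summit under 5%. With few genes in each list the intervals were wide, and no test of a list was made.

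**Figure D4:**
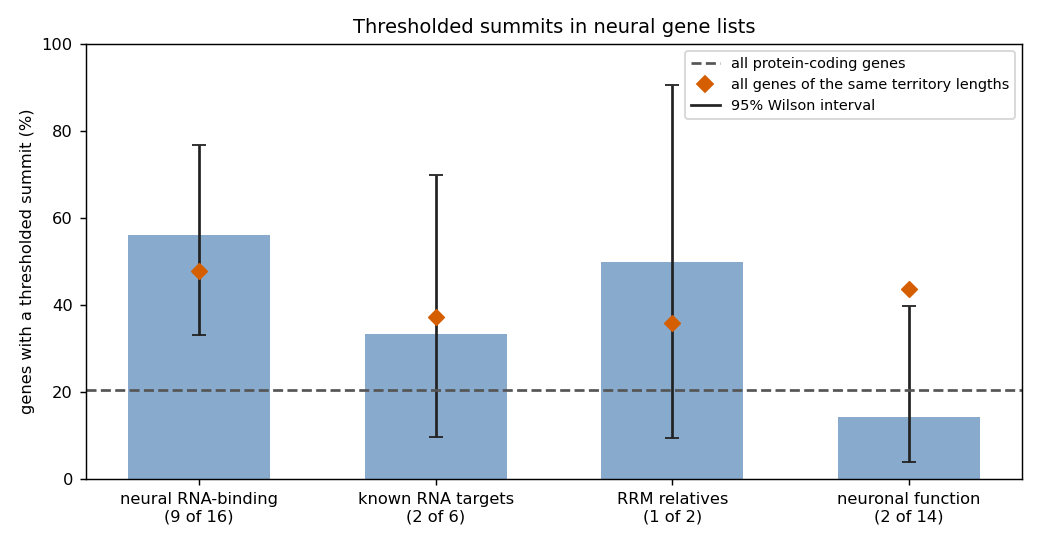
Percentage of genes with a thresholded summit in 4 lists of neural genes, with 95% Wilson intervals that cover counting error over genes only. Diamonds give the average share among all genes in the same bins of territory length, which match the longest genes only roughly. The dashed line is the share of all protein-coding genes, 20.5%. The neuronal function list is at 14.3% (2 of 14 genes) and its diamond at 43.7%, and its count ranged from 1 to 4 under the alternatives.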

How the data were processed

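Regions were called by the authors in dm6 against a control alignment and passed through the irreproducible discovery rate procedure, per the text files deposited with the samples. The deposited lists give a signal per region, on the scale of its own list, and the −log10 of the q-value, by the column layout of the format. Neither the peak caller nor the aligner is given in the sources used here. The dm3 lists were not used. Gene models were those of Ensembl release 115 and sequences came from the NCBI Release 6 assembly, whose arms hold the last region of each dm6 list.

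Starts, summits and intervals were placed 1-based. Territories were divided into 20 bins of length. A replicate region was matched to a thresholded summit if that summit was its nearest, at 250 bp or less, and of several the one of highest signal was taken. The summaries of position range, width, place among genes and 3' UTRs were chosen after the values were seen. Assignment, matching and motif search were tested on planted summits and sequences. The symbol nos was read as nanos through synonyms. Members, lists and the rule for named genes (the members, genes at their summits, and up to 4 genes of best mean rank per list) were chosen with earlier results of these data known. With 1 group there was no test, and p-values were not computed. Alternatives covered territory, assignment, regions counted, matching, window and each replicate left out. Python 3.11.15, numpy 2.4.6, scipy 1.17.1 and matplotlib 3.10.9 were used.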

Additional observations from a re-analysis of the deposited data

Results flagged for a closer look

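The territories of elav and fne held 6 pooled regions of q-value under 5% that are not in the thresholded set, and that of Rbp9 held 0. Those of elav had pooled ranks of 5276 and 5317 in the 3' UTR and 4828 in an intron. Those of fne had ranks of 3765 beside the second intronic region, 4303 in the intron before the last start and 4156 in the 3' UTR. Only the fne 3' UTR region, of rank 4156, was under 5% in all 3 replicates. The region of rank 3765 took its replicate 1 rank, 2165, from the same region that was matched to the second thresholded fne summit.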

How the results depend on the processing

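All 3 members kept a thresholded summit by nearest start. The number was also 3 with 5 kb added on both sides and with pooled regions of q-value under 5%. Neither of these settings could lose a member, since the first contains the main territories and the second the thresholded summits of the members. Without replicate 1, 2 or 3 the number was 3 as well, but the thresholded set was still the one derived from all 3 replicates. By gene body only the number was 2, since the elav summit lies upstream of the gene. In the 50% of regions with the highest pooled signal it was 1, elav. Over all protein-coding genes the count was 1288 by gene body only, 5054 with 5 kb on both sides and 1778 in the highest 50%, against 2858. It was 4127 with pooled regions of q-value under 5%, and 2267, 2290 and 2278 without replicate 1, 2 and 3. Known RNA targets with a summit numbered 1 by nearest start and 0 in the highest 50%, and 1 to 2 with a replicate left out. Neuronal function genes numbered 4 with 5 kb on both sides, 1 in the highest 50%, 4 with pooled regions under 5%, and 1 to 2 with a replicate left out. Matching within 100 bp gave mean ranks of 10113 and 11753 for the first and second fne regions, against 2762 and 2474. Replicate 1 placed the fne summits 5981 and 8622 bp from the nearest start, against 6177 and 8451 bp, and replicate 3 placed the Rbp9 summit at 852 bp, against 764 bp. The mean rank of elav was 110 to 143 with a replicate left out, against 128. The E-box count in the 4 windows was 3 with 50 bp on each side and 5 with 150 bp, against 4. No paired analysis was possible because the samples form 1 group. Without read counts, depth sets no limit that can be stated, and with 3 replicates a rank has an SD of 33.2 (elav) to 585 (second fne region).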
